A study of Mus musculus with 6 samples.

Results

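The genes described here encode voltage-gated sodium and calcium channels, chloride channels, transient receptor potential (TRP) channels and the proteins that release calcium from internal stores or refill them. They were chosen by name and biotype alone: 97 protein-coding genes, of 55802 genes in the tables, carry a symbol of the Scn, Cacna, Cacnb, Cacng, Trpc, Trpm, Trpv, Clcn, Hcn, Ano, Itpr, Ryr, Stim or Orai families. The symbols also take in Trpc4ap, which encodes a TRPC4-associated adaptor protein, and Trpc5os, a gene opposite Trpc5, neither of which is a channel. The RNA came from cultured neural stem cells that had been taken from adult C57BL/6 mice, out of the subventricular zone (SVZ), the germinal zone beside the lateral ventricles, and kept with the B27 supplement. One group was infected for 24 h with an adenovirus carrying SETD4, a SET-domain lysine methyltransferase, together with green fluorescent protein (SETD4 OE, n = 3). The other received an adenovirus with the fluorescent protein alone (control, genotype WT, n = 3), so all 6 libraries came from virus-infected cells. The share of infected cells and the number of animals behind each library are not given in the labels, which also do not say whether replicates were separate cultures. The p-values therefore measure the spread between these libraries, which may be technical.

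Voltage-gated channels consist of a large pore-forming alpha subunit and smaller auxiliary subunits that set its trafficking and gating. Neural stem cells and astroglia do not fire action potentials of the neuronal kind, and are known to signal largely through calcium released from the endoplasmic reticulum and through calcium entry that is triggered when those stores run down. CLC proteins move chloride at the plasma membrane or exchange it for protons inside endosomes and lysosomes, and most TRP channels pass cations in response to chemical or physical stimuli.

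Values are FPKM, which scale reads to gene length and library size, so levels can be compared between genes. Libraries held 14924273 to 18078717 recovered reads. Setd4 had 296, 346 and 333 FPKM in SETD4 OE and 0.952, 0.972 and 1.53 FPKM in control libraries; this value does not separate viral from endogenous transcripts. The 10 markers of neural stem cells and astroglia were all above 1 FPKM, and 6 of them were higher in SETD4 OE, 3 lower and 1 not called. Gfap averaged 1388 FPKM in SETD4 OE and 321 FPKM in controls and Sox2 averaged 190 and 162 FPKM, while the progenitor marker Nes was lower, at 42.7 and 117 FPKM. Fold changes come from limma on log2(FPKM + 1), which understates changes of low genes, with Benjamini-Hochberg adjustment over the 12994 genes that average 1 FPKM or more. A gene is called changed at an adjusted p under 0.05.

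The 4 upstream sequences below are printed because they belong to members on which the results below turn: the endolysosomal chloride-proton exchangers Clcn6 and Clcn7, which rose, the calcium channel gene Orai2, which fell, and the calcium sensor gene Stim1, which among members above 1 FPKM had the second highest log2 fold change after Cacng4. Each is the 250 bases before a RefSeq transcript start of build GRCm38.p6, read 5′ to 3′ on the gene's strand. Capitals mark CACGTG, the palindromic E-box core bound by helix-loop-helix zipper factors, in the first 3, and GGGCGG or its reverse complement CCGCCC, the GC box, in Stim1. The genes were picked after their values were seen.
Clcn6 (chr4:148038814-148039063, minus strand): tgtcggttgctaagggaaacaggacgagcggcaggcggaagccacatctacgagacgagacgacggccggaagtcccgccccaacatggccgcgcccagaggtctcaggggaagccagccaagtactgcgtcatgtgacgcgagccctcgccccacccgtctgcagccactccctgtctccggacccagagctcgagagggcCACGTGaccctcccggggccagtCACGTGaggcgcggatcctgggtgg
Clcn7 (chr17:25133141-25133390, plus strand): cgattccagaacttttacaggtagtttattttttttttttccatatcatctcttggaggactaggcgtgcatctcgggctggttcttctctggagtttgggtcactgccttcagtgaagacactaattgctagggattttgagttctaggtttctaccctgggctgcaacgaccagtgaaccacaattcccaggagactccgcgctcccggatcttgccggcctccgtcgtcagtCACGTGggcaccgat
Orai2 (chr5:136170657-136170906, minus strand): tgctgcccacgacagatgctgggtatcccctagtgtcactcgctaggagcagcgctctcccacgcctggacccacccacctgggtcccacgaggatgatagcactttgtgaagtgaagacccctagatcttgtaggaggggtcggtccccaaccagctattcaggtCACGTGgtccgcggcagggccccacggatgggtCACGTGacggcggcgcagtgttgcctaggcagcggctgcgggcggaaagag
Stim1 (chr7:102267569-102267818, plus strand): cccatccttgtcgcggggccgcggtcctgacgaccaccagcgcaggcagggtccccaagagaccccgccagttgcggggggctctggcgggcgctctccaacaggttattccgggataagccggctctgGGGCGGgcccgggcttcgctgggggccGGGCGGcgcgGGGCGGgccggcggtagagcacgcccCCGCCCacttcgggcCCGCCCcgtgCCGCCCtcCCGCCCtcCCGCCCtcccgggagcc
The window of Clcn6 held 2 E-box cores, which begin 48 and 25 bases before the start, and that of Orai2 held 2, which begin 84 and 51 bases before it. Clcn7 had 1, beginning 15 bases before the start, in the first of its 2 windows. Stim1 had none and held 8 GC boxes on either strand. Of 34 members at or above 1 FPKM, 27 had a RefSeq window. CACGTG stood in 6 of these 27 (22.2%), namely Clcn4, Clcn6, Clcn7, Trpm7, Orai2 and Ano3, against 922 of 9051 protein-coding genes at 1 FPKM or more (10.2%) and 1854 of all 27025 genes with a window (6.86%). At least 2 copies occurred in 92 of those 9051 protein-coding genes and in 135 of all 27025 genes with a window. GGGCGG stood in 20 of the 27 members (74.1%), against 66.6% of the protein-coding genes at that level and 35.4% of all genes. A GGGCGG match and a CACGTG match can share a base at their ends. The 6 members with CACGTG comprised 4 of the 15 with a window that rose, 1 of the 3 that fell and 1 of the 9 that were not called. Ano8, Cacna1a, Cacna1h, Cacng4, Itpr1 and Scn3b are among those with no entry in the table of windows.

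Of the 97 members, 34 reached a mean of 1 FPKM over the 6 libraries, 63 did not, and 4 of the latter (among them Trpc2, Trpv5 and Ano9) had no read in any library, where a count of 0 allows up to 3 reads of the 96168839 recovered (counting error only). Among the 34, 24 changed (70.6%), against 60.0% of all genes tested. In SETD4 OE 17 were higher (50.0%) and 7 lower (20.6%), where the shares over all genes tested were 26.0% and 33.9%. The median log2 fold change was 0.18 over these members and -0.06 over all genes tested. The 3 SETD4 OE values lay wholly above or below the 3 control values for 26 of the 34 members, and for 66.0% of all genes tested. Among the 15 members between 1 and 5 FPKM 6 were higher and 3 lower, where 30.9% and 22.0% of all genes of that level were. Trpm5 passed the 1 FPKM filter only through its level in SETD4 OE. These are bulk libraries, in which a change in the share of a cell type and a change of RNA per cell cannot be told apart.

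**Figure D1:**
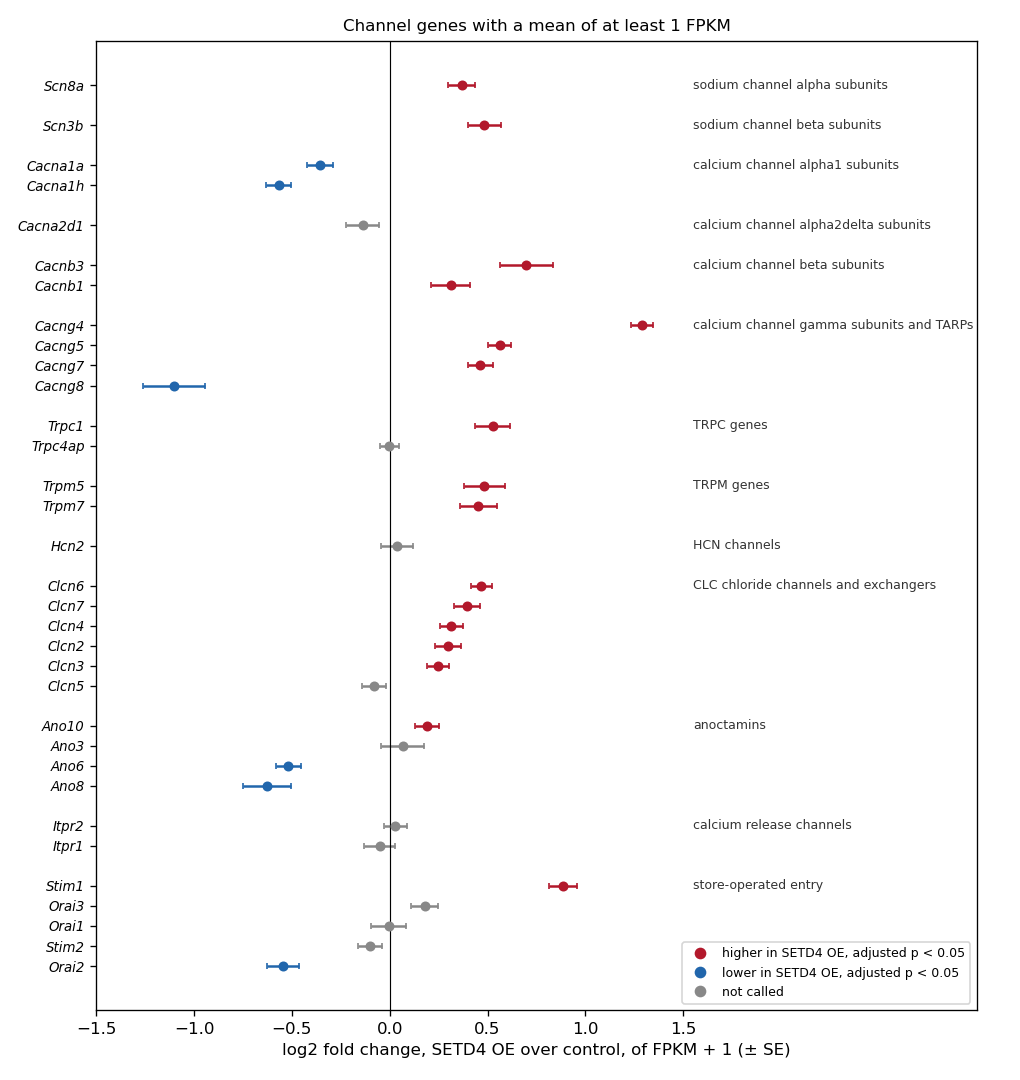
Log2 fold change of FPKM + 1 (SETD4 OE over control, ± SE, limma) for 33 of the 34 channel genes that average 1 FPKM or more, grouped by class. Red points were higher, blue lower and grey not called; Cacng4 at 1.29 lies farthest to the right, and Cacng8 at -1.10 farthest to the left.

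The gamma-subunit genes held the most abundant members, and the largest rise among members above 1 FPKM. Cacng4, Cacng5 and Cacng7 rose in SETD4 OE and Cacng8 fell. These 4 encode TARPs, transmembrane proteins related to the calcium channel gamma subunit of skeletal muscle that bind AMPA-type glutamate receptors and shape their gating. Cacng4 and Cacng8 are type I and Cacng5 and Cacng7 type II. Cacng5 (mm39 chr11:107765431-107805881, minus strand) had 89.5, 96.5 and 90.4 FPKM in SETD4 OE and 65.0, 60.4 and 60.9 FPKM in control libraries. All SETD4 OE libraries were above all controls, with a log2 fold change of 0.56 (SE 0.06, adjusted p = 1.974e-04, limma). Cacng7 (chr7:3381471-3416737, plus strand) had 51.9, 52.6 and 57.0 FPKM in SETD4 OE, against 38.2, 40.9 and 37.3 FPKM in controls. It rose by a log2 fold change of 0.46 (SE 0.06, adjusted p = 6.578e-04), and again the groups did not overlap. Cacng4 (chr11:107623183-107685383, minus strand) stood at 31.5, 30.9 and 33.6 FPKM in SETD4 OE and at 13.0, 12.1 and 12.3 FPKM in controls. Its log2 fold change of 1.29 (SE 0.06, adjusted p = 5.356e-06, limma) was the only rise above 1 among members in the fit on log2(FPKM + 1). In limma-voom on recovered reads it was 1.36, and Stim1, at 1.19, also rose by more than 1. So did several members under 1 FPKM, which are described below.

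Cacng8 (chr7:3439199-3464164, plus strand), the type I TARP known for its place at hippocampal synapses, had 7.99, 6.04 and 8.04 FPKM in SETD4 OE, against 13.5, 20.3 and 17.3 FPKM in controls. The highest SETD4 OE value was below the lowest control value (log2 fold change -1.10, SE 0.16, adjusted p = 8.237e-04, limma). Cacng7 and Cacng8 are neighbours on the same strand with 22461 bases and no other protein-coding gene between them, and they went opposite ways. Cacng4 and Cacng5, which both rose, are neighbours 80047 bases apart on chromosome 11. Summed over all 8 gamma genes, the level was 186 ± 4.09 FPKM in SETD4 OE and 131 ± 2.96 FPKM in controls (SD, n = 3 each), within a total of 433 ± 3.94 and 384 ± 7.74 FPKM for all 97 members. Cacng1, Cacng2, Cacng3 and Cacng6 contributed little: the highest of them, Cacng6, averaged 0.238 FPKM over the 6 libraries. Each of these 4 TARP genes except Cacng5 overlaps another expressed gene in the tables: a predicted gene on the opposite strand for Cacng4 (Gm11650) and Cacng8 (Gm44151), and on the same strand for Cacng7 (Gm44256). Without a stated strand setting, reads of these neighbours could be counted in the TARP genes; the 3 neighbours were at most 4.75 FPKM in either group's mean.

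Among sodium channels, the alpha subunit gene Scn8a and the auxiliary subunit gene Scn3b rose. Scn3b (chr9:40180513-40202914, plus strand), which encodes beta3, had 3.75, 3.90 and 3.25 FPKM in SETD4 OE and 2.32, 2.49 and 2.13 FPKM in controls. It rose by a log2 fold change of 0.48 (SE 0.08, adjusted p = 0.00213, limma) with no overlap. Scn8a (chr15:100767739-100943819, plus strand) encodes Nav1.6, a channel of axon initial segments and nodes. Its values were 3.05, 3.04 and 2.94 FPKM in SETD4 OE, against 2.13, 1.97 and 2.23 FPKM in controls, again without overlap (log2 fold change 0.37, SE 0.07, adjusted p = 0.00338). Scn8a was the only one of 10 alpha genes to reach 1 FPKM.

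Among voltage-gated calcium channels, both alpha1 genes above 1 FPKM fell and both cytosolic beta genes above it rose. Cacna1h (chr17:25593259-25652757, minus strand), which encodes the low-voltage-activated T-type channel Cav3.2, had 3.02, 2.63 and 2.90 FPKM in SETD4 OE, against 4.67, 4.74 and 4.68 FPKM in controls. Every SETD4 OE library was below every control (log2 fold change -0.57, SE 0.07, adjusted p = 2.904e-04, limma). Cacna1a (chr8:85065268-85366875, plus strand) encodes Cav2.1, the P/Q-type channel of presynaptic terminals. It stood at 3.13, 2.93 and 2.86 FPKM in SETD4 OE and at 4.15, 3.86 and 4.27 FPKM in controls, a fall of smaller size without overlap (log2 fold change -0.36, SE 0.07, adjusted p = 0.00299). Beta subunits bind the alpha1 subunit from inside the cell and promote its surface expression. Cacnb3 (chr15:98528721-98542410, plus strand) had 7.77, 5.52 and 6.66 FPKM in SETD4 OE, against 3.08, 4.34 and 3.70 FPKM in controls. Its replicates spread widely but did not overlap (log2 fold change 0.70, SE 0.14, adjusted p = 0.00355). Cacnb1 (chr11:97892334-97913860, minus strand) had 4.70, 3.50 and 3.70 FPKM in SETD4 OE and 3.05, 2.84 and 3.05 FPKM in controls. SETD4 OE replicate 1 stood above the other SETD4 OE replicates, and the call (log2 fold change 0.31, SE 0.10, adjusted p = 0.0299) was lost without that library (adjusted p = 0.0676), without control replicate 2 (0.0820), without control replicate 3 (0.0644) and with no filter on low values (0.0797). Cacna2d1, which encodes an alpha2delta subunit that binds gabapentin, did not pass, at 3.77 ± 0.290 FPKM in SETD4 OE and 4.26 ± 0.417 FPKM in controls (adjusted p = 0.187, limma).

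**Figure D2:**
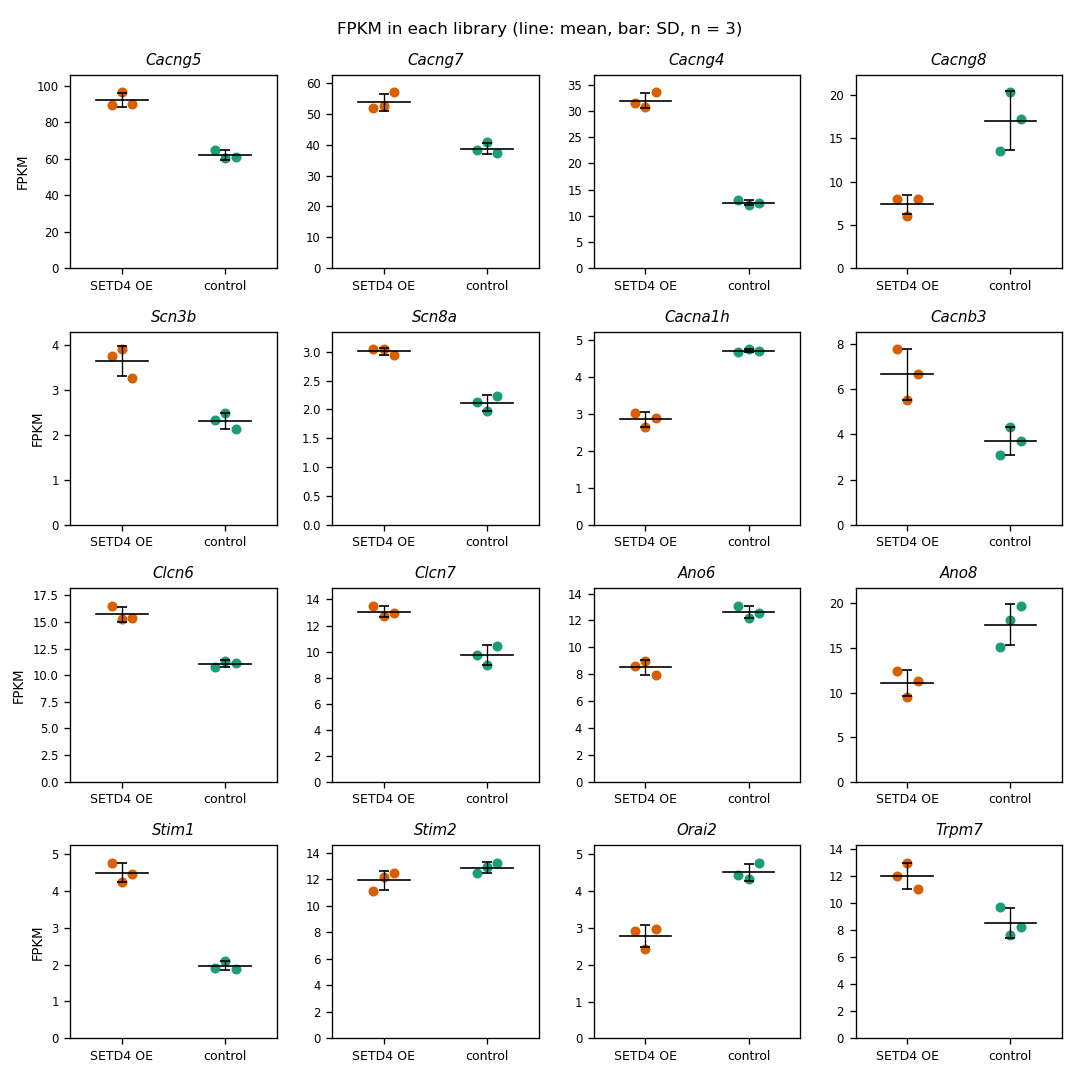
FPKM of 16 channel genes in each of the 3 SETD4 OE libraries (orange, left) and the 3 control libraries (green, right), on linear axes that start at 0; lines are means and bars SD. Groups are separate for every gene shown except Stim2, whose SETD4 OE values reach 12.5 FPKM and whose control values start at 12.5 FPKM.

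Of the 6 CLC genes above 1 FPKM, 5 rose, by 1.2 to 1.4 times in FPKM, and none fell, where 26.0% of all genes tested rose and 33.9% fell. Clcn6 encodes an exchanger of late endosomes, and Clcn7 the lysosomal exchanger that works with the subunit Ostm1. Clcn6 (chr4:148088716-148123278, minus strand, in mm39) had 16.5, 15.3 and 15.4 FPKM in SETD4 OE, against 10.7, 11.4 and 11.1 FPKM in controls. The rise was clear of the replicate spread (log2 fold change 0.47, SE 0.06, adjusted p = 3.264e-04, limma). Clcn7 (chr17:25352365-25381078, plus strand, in mm39) had 13.5, 12.7 and 13.0 FPKM in SETD4 OE and 9.77, 8.93 and 10.5 FPKM in controls. It also rose without overlap (log2 fold change 0.39, SE 0.07, adjusted p = 0.00198). Clcn3 and Clcn4 encode exchangers of endosomes. Clcn4 had 12.6, 13.7 and 12.7 FPKM in SETD4 OE, against 10.3, 9.88 and 10.7 FPKM in controls (log2 fold change 0.31, adjusted p = 0.00282). Clcn3 had 11.1, 11.3 and 10.4 FPKM in SETD4 OE, against 9.24, 8.76 and 9.14 FPKM in controls (log2 fold change 0.25, adjusted p = 0.00720). Clcn2 encodes a plasma membrane chloride channel that glia express. It had 6.51, 5.77 and 6.01 FPKM in SETD4 OE, against 4.51, 4.78 and 5.03 FPKM in controls (log2 fold change 0.30, adjusted p = 0.00706). Clcn2 overlaps Polr2h and Fam131a on the opposite strand by 82 and 85 bases, and both of those genes had lower mean FPKM in SETD4 OE. Clcn5, the third endosomal exchanger, did not pass, at 3.24, 3.52 and 3.45 FPKM in SETD4 OE and 3.72, 3.58 and 3.65 FPKM in controls (log2 fold change -0.08, SE 0.06, adjusted p = 0.302). Its SETD4 OE values nevertheless all lay below its control values. The 9 CLC genes summed to 62.4 ± 1.28 FPKM in SETD4 OE and 48.7 ± 1.37 FPKM in controls.

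The anoctamins, a family of calcium-activated chloride channels and lipid scramblases, were divided, with 2 of 4 genes above 1 FPKM lower and 1 higher. Ano6 (chr15:95688724-95872632, plus strand) encodes a calcium-activated scramblase that exposes phosphatidylserine. It had 8.61, 9.02 and 7.93 FPKM in SETD4 OE, against 13.1, 12.2 and 12.6 FPKM in controls, with no overlap (log2 fold change -0.52, SE 0.06, adjusted p = 3.645e-04, limma). Ano8 (chr8:71928663-71938607, minus strand), which tethers the endoplasmic reticulum to the plasma membrane, had 12.4, 9.48 and 11.3 FPKM in SETD4 OE and 15.1, 18.1 and 19.7 FPKM in controls. It fell with wide spread in both groups but no overlap (log2 fold change -0.63, SE 0.12, adjusted p = 0.00347). Ano10 had 8.19, 8.67 and 8.03 FPKM in SETD4 OE, against 7.01, 7.56 and 6.87 FPKM in controls (log2 fold change 0.19, adjusted p = 0.0277). The Ano10 call was lost with the replicate number as a block (adjusted p = 0.0549) and without SETD4 OE replicate 1 (0.0645) or 2 (0.0826) or control replicate 1 (0.0595) or 3 (0.101). Ano3, at 3.47 ± 0.188 FPKM in SETD4 OE and 3.30 ± 0.656 FPKM in controls, did not pass (adjusted p = 0.636). Ano6 overlaps the predicted gene Gm49172 and Ano8 overlaps Dda1, both on the opposite strand; these neighbours averaged 10.3 and 24.4 FPKM in SETD4 OE and 14.4 and 40.6 FPKM in controls.

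In store-operated calcium entry, the sensor gene Stim1 rose, the channel gene Orai2 fell, and the other 3 genes were not called. STIM proteins sense falling calcium in the endoplasmic reticulum and open ORAI channels in the plasma membrane. Stim1 (chr7:101917013-102086526, plus strand, in mm39) had 4.76, 4.24 and 4.46 FPKM in SETD4 OE, against 1.92, 2.11 and 1.87 FPKM in controls. It averaged 4.49 ± 0.261 FPKM in SETD4 OE and 1.97 ± 0.125 FPKM in controls, with no overlap and a log2 fold change of 0.89 (SE 0.07, adjusted p = 5.646e-05, limma). Stim2, whose protein responds to smaller losses of stored calcium, remained the more abundant sensor gene. It had 11.1, 12.2 and 12.5 FPKM in SETD4 OE and 12.5, 12.9 and 13.2 FPKM in controls (log2 fold change -0.10, SE 0.06, adjusted p = 0.182). Orai2 (chr5:136176313-136199567, minus strand, in mm39) had 2.92, 2.44 and 2.98 FPKM in SETD4 OE, against 4.43, 4.33 and 4.77 FPKM in controls. The groups did not overlap (log2 fold change -0.55, SE 0.08, adjusted p = 9.792e-04). Orai1, the main pore gene of immune cells, had 10.8, 8.86 and 11.2 FPKM in SETD4 OE and 9.74, 10.5 and 10.7 FPKM in controls (log2 fold change -0.01, SE 0.09, adjusted p = 0.963). Orai3 had 12.8, 12.8 and 14.7 FPKM in SETD4 OE, against 11.3, 11.8 and 12.1 FPKM in controls, without overlap. It missed the threshold (log2 fold change 0.18, SE 0.07, adjusted p = 0.0586) but passed under 4 other scalings, with adjusted p from 0.00385 to 0.0158. Of the receptors that release stored calcium in response to inositol trisphosphate, Itpr1 averaged 2.14 ± 0.186 FPKM in SETD4 OE and 2.25 ± 0.0468 FPKM in controls, and Itpr2 averaged 3.84 ± 0.132 and 3.74 ± 0.0769 FPKM. Neither passed (adjusted p = 0.592 and 0.711), and no member of the ryanodine receptor family reached 1 FPKM.

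TRP genes above 1 FPKM either rose or were not called. Trpm7 (chr2:126633485-126718150, minus strand) encodes a channel fused to a kinase that carries magnesium, zinc and calcium. It had 11.98, 12.95 and 11.03 FPKM in SETD4 OE, against 9.70, 7.59 and 8.25 FPKM in controls, the most abundant TRP channel gene in both groups (log2 fold change 0.45, SE 0.10, adjusted p = 0.00541, limma). Trpc1 (chr9:95587135-95632428, minus strand), a receptor-operated cation channel subunit, had 3.69, 4.03 and 3.27 FPKM in SETD4 OE and 2.45, 2.22 and 2.03 FPKM in controls. It rose without overlap (log2 fold change 0.53, SE 0.09, adjusted p = 0.00197). Trpm5, a calcium-activated cation channel known from taste cells, had 1.81, 1.54 and 1.35 FPKM in SETD4 OE, against 0.771, 0.853 and 0.875 FPKM in controls (log2 fold change 0.48, SE 0.10, adjusted p = 0.00597). It shares 1845 bases with Tssc4 on the opposite strand, which averaged 37.0 FPKM in SETD4 OE and 31.7 FPKM in controls, so the source of the Trpm5 reads is uncertain. The adaptor gene Trpc4ap had 24.9, 25.7 and 25.5 FPKM in SETD4 OE and 25.9, 25.4 and 25.0 FPKM in controls (adjusted p = 0.980). The pacemaker channel gene Hcn2, the only HCN gene above 1 FPKM, did not pass, at 3.24 ± 0.294 FPKM in SETD4 OE and 3.14 ± 0.239 FPKM in controls (adjusted p = 0.721).

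Of the channel genes under 1 FPKM, most of those that changed were higher in SETD4 OE, led by Ryr3, Trpv4 and Cacna1e. Because the FPKM values step in whole reads, these genes were read from recovered reads with limma-voom, whose filter of a mean of 10 reads 27 of the 63 low members passed. Of these 27, 13 were higher, 2 were lower and 12 were not called (55.6% called). Among all 2997 genes that only this filter admitted, 45.9% were called, 37.6% higher and 8.34% lower, so rises outnumbered falls among low genes of the whole table too. Over all 61 members that limma-voom could test, 30 were higher and 9 lower, against 29.4% and 30.6% of the 15645 genes in that fit (60.0% called). The remaining 36 low members, among them Scn1a, Scn9a, Cacna1i, Cacna1s, Hcn4 and every TRPV gene but Trpv4, were too low for either test.

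Ryr3, a ryanodine receptor that releases stored calcium, had 146, 158 and 130 reads in SETD4 OE, against 15, 17 and 20 reads in controls. The groups were far apart (log2 fold change 3.08, SE 0.27, adjusted p = 7.236e-07, limma-voom); Aven lies on the opposite strand across 3219 bases of the gene, at 2.41 FPKM in SETD4 OE and 3.34 FPKM in controls. Ryr2 had 81, 111 and 133 reads in SETD4 OE and 70, 66 and 55 reads in controls (log2 fold change 0.79, adjusted p = 0.00544). Trpv4, a cation channel opened by cell swelling and warmth that astroglia and choroid plexus express, had 55, 48 and 60 reads in SETD4 OE, against 7, 23 and 6 reads in controls. All SETD4 OE libraries were higher, although control replicate 2 stood above the other controls (log2 fold change 2.41, SE 0.39, adjusted p = 1.603e-04). Trpm3, a channel activated by heat and by pregnenolone sulfate, had 412, 391 and 410 reads in SETD4 OE and 162, 143 and 153 reads in controls (log2 fold change 1.46, SE 0.12, adjusted p = 3.358e-07). Trpm4, a calcium-activated cation channel, had 191, 182 and 207 reads in SETD4 OE, against 116, 152 and 102 reads in controls (log2 fold change 0.71, adjusted p = 8.315e-04). Trpm3 and Trpm4 each overlap a processed pseudogene. Nsa2-ps1 shares 780 bases with Trpm3 on the same strand and averaged 6.23 FPKM in SETD4 OE and 7.14 FPKM in controls. Rpl14-ps1 shares 653 bases with Trpm4 on the opposite strand and averaged 76.9 FPKM in SETD4 OE and 160.9 FPKM in controls. The source of the Trpm3 and Trpm4 reads is therefore uncertain.

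Low voltage-gated channel genes called by limma-voom were all higher. Cacna1e, the R-type alpha1 subunit, had 102, 113 and 110 reads in SETD4 OE, against 42, 28 and 28 reads in controls (log2 fold change 1.80, SE 0.23, adjusted p = 2.001e-05). Cacna1g, the T-type subunit Cav3.1, had 52, 33 and 64 reads in SETD4 OE and 24, 27 and 11 reads in controls (log2 fold change 1.34, adjusted p = 0.00606), while the T-type gene Cacna1h fell; the remaining T-type gene, Cacna1i, was too low to test. Cacna1d, an L-type subunit, had 158, 136 and 147 reads in SETD4 OE, against 94, 123 and 111 reads in controls (log2 fold change 0.48, adjusted p = 0.0133). It overlaps Dcp1a on the opposite strand over 11921 bases. Dcp1a averaged 5.16 FPKM in SETD4 OE and 5.45 FPKM in controls, where Cacna1d averaged 0.606 and 0.436 FPKM. The source of the Cacna1d reads is therefore uncertain. The alpha2delta genes Cacna2d2 and Cacna2d3 rose by log2 fold changes of 1.35 and 1.38 (adjusted p = 1.382e-04 and 6.224e-04, limma-voom), and the beta gene Cacnb4 by 0.79 (adjusted p = 0.00388). Cacnb4 shares 432 bases with Bloc1s2-ps on the opposite strand, which averaged 1.40 FPKM in SETD4 OE and 2.46 FPKM in controls. Of the sodium channel alpha genes, Scn3a, which is known for its high level in embryonic brain, had 76, 78 and 73 reads in SETD4 OE, against 34, 34 and 38 reads in controls (log2 fold change 1.14, SE 0.21, adjusted p = 4.943e-04). Scn2a had 91, 102 and 96 reads in SETD4 OE and 52, 76 and 41 reads in controls (log2 fold change 0.85, adjusted p = 0.00350). In neither gene did the groups overlap.

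The 2 low members that fell were Ano1 and Itpr3. Ano1, the calcium-activated chloride channel of secretory epithelia and smooth muscle, had 12, 16 and 24 reads in SETD4 OE, against 91, 78 and 91 reads in controls. The groups were widely separated (log2 fold change -2.28, SE 0.30, adjusted p = 2.435e-05, limma-voom). Itpr3 had 51, 45 and 56 reads in SETD4 OE and 97, 78 and 79 reads in controls (log2 fold change -0.68, SE 0.20, adjusted p = 0.0119). Other low members that average 0.5 FPKM or more in either group were not called: Cacna1b at 0.629 and 0.489 FPKM, Cacna1c at 0.545 and 0.550 FPKM, Cacnb2 at 0.743 and 0.872 FPKM, and Hcn3 at 0.937 and 0.882 FPKM (means, SETD4 OE and control).

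**Figure D3:**
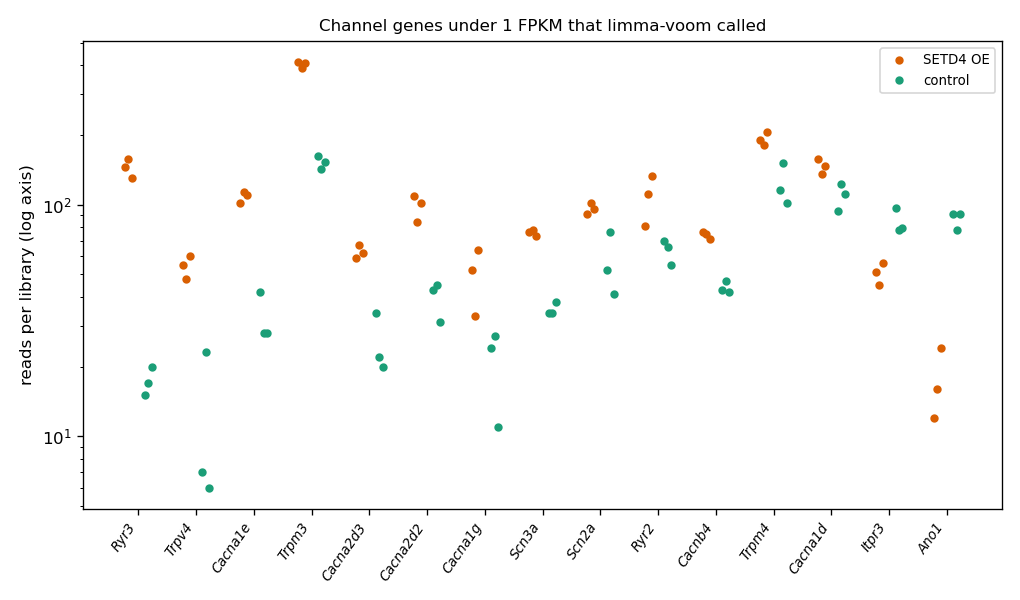
Recovered reads per library (log axis) of the 15 channel genes under 1 FPKM that limma-voom called, ordered by log2 fold change, with the 3 SETD4 OE libraries in orange left of the 3 control libraries in green. From Ryr3 (130 to 158 reads in SETD4 OE and 15 to 20 in controls) to Cacna1d the orange points lie above the green ones, and for Itpr3 and Ano1 below them.

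Markers of other cell types moved between the groups as well, and their part in the channel results was not tested. Of 8 markers of oligodendrocyte precursors 6 rose and 2 fell, the latter being Olig1 and Olig2, and the list summed to 727 to 782 FPKM in SETD4 OE, against 1155 to 1290.5 FPKM in controls. Olig1 averaged 570 FPKM in SETD4 OE and 888 FPKM in controls, and Olig2 averaged 128 and 339 FPKM, so these 2 genes carried the sum. The most abundant of the 6 that rose, Gpr17, averaged 14.3 FPKM in SETD4 OE and 2.96 FPKM in controls. All 6 tested markers of oligodendrocytes rose (9 in the list; 85.2 to 92.5 FPKM in SETD4 OE and 43.4 to 46.6 FPKM in controls), as did all 7 tested ependymal markers (8 in the list; 59.8 to 77.6 and 24.5 to 28.5 FPKM). In each of these lists 2 of the tested markers (Mag and Myrf, Tmem212 and Pifo) passed the 1 FPKM filter only through SETD4 OE, so they could only be higher. For mature neurons, 7 of 13 markers were under 1 FPKM, 1 rose and 3 fell, with sums of 36.1 to 41.2 FPKM in SETD4 OE and 44.8 to 47.6 FPKM in controls; the marker that rose, Gad1, passed the filter only through SETD4 OE, and those that fell, Nefl, Nefm and Gad2, only through controls. The neuronal marker Rbfox3 averaged 0.236 FPKM in SETD4 OE and 0.0938 FPKM in controls, Snap25 averaged 0.460 and 0.474 FPKM, and Slc17a6 had 5 reads in SETD4 OE and 1 in controls over 3 libraries each. Neuroblast markers summed to 92.8 to 107 FPKM in SETD4 OE and 114 to 122 FPKM in controls (2 of 6 tested higher, 2 lower). Without the most abundant, Cd24a, which fell, they summed to 30.4 ± 3.35 FPKM in SETD4 OE and 23.8 ± 1.39 FPKM in controls (SD). Microglial and endothelial markers were under 1 FPKM for 11 of 12 and 7 of 8 genes. They summed to at most 6.92 and 1.76 FPKM in SETD4 OE and 10.3 and 4.39 FPKM in controls. Cd68 and Flt1, the only ones tested, both fell, and Flt1 passed the filter only through controls. Pericyte, smooth muscle and fibroblast markers were under 1 FPKM for 5 of 9 genes. Of the 4 tested, 3 rose and Acta2 fell, and Rgs5 and Col1a1 passed the filter only through SETD4 OE. This list summed to at most 25.6 FPKM in SETD4 OE and 37.3 FPKM in controls. Without Acta2 it summed to 12.5 ± 0.384 and 4.42 ± 0.131 FPKM (SD, n = 3 each). Within these lists, Cx3cr1 had no read in SETD4 OE and Cldn5 none in either group.

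Among 99 genes of related ion handling, 62 were tested, 27 rose and 16 fell; the median over the 62 was 0.13 on the log2 scale. These are 43.5% higher and 25.8% lower, against 26.0% and 33.9% of all genes tested, and the counts of single lists that follow are of few genes. Of the 62, 4 passed the 1 FPKM filter only through SETD4 OE, all of them called higher, and 1 only through controls, called lower. In the sodium pump 3 of 6 subunit genes rose and 1 fell. Atp1b2, the beta2 subunit of astroglia, had 383, 394 and 375 FPKM in SETD4 OE, against 148, 130 and 133 FPKM in controls (log2 fold change 1.48, adjusted p = 6.387e-06, limma). Of 12 tested calcium channel regulators 3 rose and 7 fell, and 1 of these 7, Stac2, passed the filter only through controls. Gem, a small GTPase that binds beta subunits and lowers calcium channel activity, had 40.3, 39.8 and 40.1 FPKM in SETD4 OE, against 5.99, 6.21 and 5.92 FPKM in controls (log2 fold change 2.55, SE 0.05, adjusted p = 4.180e-07). Calm2, 1 of 3 genes for identical calmodulin proteins, averaged 105 ± 4.78 FPKM in SETD4 OE and 282 ± 17.5 FPKM in controls (log2 fold change -1.41).

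Sodium channel partners counted 4 higher and 1 lower of 7 tested, and 1 of these 4, Fgf12, passed the 1 FPKM filter only through SETD4 OE. The ankyrin gene Ank2 had 33.6, 35.0 and 32.6 FPKM in SETD4 OE, against 15.2, 13.4 and 14.2 FPKM in controls (log2 fold change 1.18, adjusted p = 9.242e-06, limma). Ank3, whose protein anchors sodium channels at the axon initial segment, went the other way, at 1.096, 1.12 and 1.02 FPKM in SETD4 OE and 2.60, 2.58 and 2.61 FPKM in controls (log2 fold change -0.79, adjusted p = 1.210e-04). Of 5 tested endolysosomal and other TRP-type channel genes 3 rose and 1 fell, with the two-pore channel gene Tpcn1 at a log2 fold change of 0.97 (adjusted p = 1.157e-05) and the polycystin gene Pkd1 at -0.56 (adjusted p = 2.105e-04). In the list of other chloride channels and cotransporters, 8 of 16 rose and 5 fell, and 1 of these 8, Clic3, passed the filter only through SETD4 OE. Ttyh1, a tweety-family membrane protein of stem cells and glia, averaged 102 ± 1.58 FPKM in SETD4 OE and 26.5 ± 1.38 FPKM in controls (log2 fold change 1.91), and Clic6 had a log2 fold change of 1.25. Ostm1, the partner of Clcn7, averaged 13.0 ± 0.578 FPKM in SETD4 OE and 9.82 ± 0.0801 FPKM in controls (log2 fold change 0.37, adjusted p = 8.954e-04), and was picked after its value was seen.

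Among calcium pumps and exchangers 4 of 7 rose and none fell, and 2 of these 4, Atp2b2 and Atp2b4, passed the 1 FPKM filter only through SETD4 OE. The plasma membrane pump genes Atp2b4 and Atp2b2 had log2 fold changes of 0.84 and 0.77 (adjusted p = 4.552e-04 and 3.893e-04, limma), while Atp2a2, the abundant pump of the endoplasmic reticulum, was at 84.2 ± 2.33 FPKM in SETD4 OE and 90.2 ± 1.42 FPKM in controls (adjusted p = 0.147). In the mitochondrial calcium uniporter complex 2 of 8 rose and 1 fell: the pore gene Mcu had a log2 fold change of -0.28 (adjusted p = 0.00995). Of the acid-sensing and epithelial sodium channel genes Asic1 alone was tested, and it did not pass (adjusted p = 0.440).

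**Figure D4:**
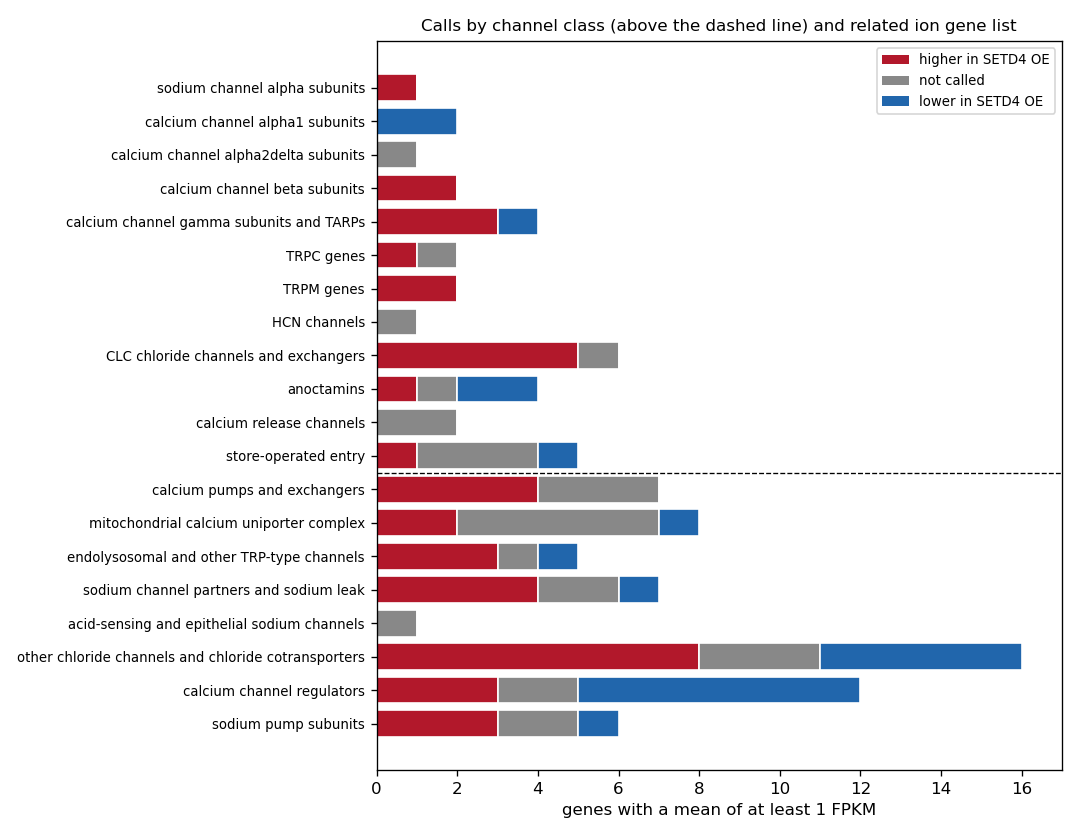
Number of genes averaging 1 FPKM or more that were higher in SETD4 OE (red), not called (grey) or lower (blue), for channel classes (sodium channel beta subunits not shown) above the dashed line and the related ion gene lists below it. The CLC genes show 5 higher and none lower of 6, and the calcium channel regulators 3 higher and 7 lower of 12.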

How the data were processed

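RNA-seq libraries of adult mouse SVZ neural stem cells were used, 3 of SETD4 OE and 3 of control, grouped by sample title. The authors deposited FPKM values in a table per group, beside each gene's position and length, per the file headers. HISAT2 2.0.5 and genome build mm39 are named in the submitters' processing notes. Counter, annotation and strand setting are not given in the sources used here. Multiplied by gene length, FPKM gave whole steps of 1 read for 100% of values (tolerance 0.05 reads), which gave reads per gene.

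Genes that average 1 FPKM or more were compared as log2(FPKM + 1) with limma 3.58.1 in R 4.3.3 (trended variance, two-sided, Benjamini-Hochberg over 12994 genes). This fit and limma-voom were tested on simulated data in which few genes changed, equally in both directions. That setting differs from these libraries, where 60.0% of all genes tested were called, so it does not show how reliable the calls are here. Alternatives were a pseudocount of 0.1, filters at 0.1 and 5 FPKM or none, a replicate block, 4 scalings, limma-voom on recovered reads (mean of at least 10, median-of-ratios library sizes) and leaving out each library. Libraries of a group differed by more than counting error (chi-square per degree of freedom 3.89 to 16.3 within and 92.8 to 121 between groups). These values cannot show whether the replicates were separate cultures. Control 1 stood at 16.27 and 10.42 from controls 2 and 3, which were at 4.185 from each other. Mitochondrial reads were 3.78%, 2.45% and 2.45% in controls 1 to 3. Recovered reads differed from the library sizes behind the FPKM by -5.04% to -3.69% in SETD4 OE and by 0.634% to 2.75% in controls. Members, lists and tests were chosen with earlier results of these data known. Members above the filter are named. The 3 called members with the largest change per class and direction, and those averaging 5 FPKM or more, get each library's value. Low members are named at 0.5 FPKM or more in either group; others that limma-voom called were added after their values were seen. Of each related list the 2 largest called changes are named. Some members and listed genes that these rules name are not reported here. Symbols of the promoter table (GRCm38.p6) were matched by name. Figures were drawn with matplotlib 3.10.9.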

Additional observations from a re-analysis of the deposited data

How the results depend on the processing

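Of the 24 called members, 22 kept their direction and their call under every alternative that could test them, and the exceptions were Ano10 and Cacnb1. Members called higher numbered 17 in the fit reported, 26 with a filter at 0.1 FPKM, 11 with a filter at 5 FPKM and 30 with limma-voom; members called lower numbered 7, and 4 with the filter at 5 FPKM. Related ion genes called higher numbered 27, and 15 with the filter at 5 FPKM and 41 with limma-voom; those lower numbered 16, and 10 with the filter at 5 FPKM. These alternatives test other numbers of genes. Among all genes tested 3384 were higher, and 1881 with the filter at 5 FPKM. Leaving out 1 library gave 15 to 17 members higher and 7 lower. Scaling to equal sums and to equal upper quartiles moved the median of all genes by 0.11 and 0.12 on the log2 scale and the share of called genes that were higher from 43.4% to 56.0% and 57.5%, while members counted 18 higher and 7 lower under both. With these scalings the log2 fold changes of uncalled members that changed sign were 0.025 and 0.038 for Clcn5, 0.13 and 0.14 for Trpc4ap, 0.040 and 0.051 for Itpr1, 0.020 and 0.036 for Stim2, and 0.12 and 0.13 for Orai1. Median-of-ratios scaling gave 0.065 for Trpc4ap and 0.057 for Orai1, and quantile normalization gave 0.18 for Trpc4ap (adjusted p = 0.0274, limma), 0.0021 for Stim2 and 0.091 for Orai1. Limma-voom gave 0.0023 for Trpc4ap. Leaving out 1 library at a time gave -0.0031 to 0.094 for Hcn2, -0.013 to 0.012 for Trpc4ap and -0.066 to 0.089 for Orai1. The cause was not tested. With the replicate number as a block, 16 members were higher and 7 lower (2993 and 3948 genes over the table). Deviations of same-numbered libraries had correlations of -0.066, -0.229 and 0.077, and those of other pairs ranged from -0.247 to 0.300. With 3 libraries per group these values cannot show whether the numbers pair the samples, which the labels do not state. Members under about 10 reads per library could not be tested at this depth.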

Other observations

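Several related ion genes under 1 FPKM were called by limma-voom on recovered reads, and they were picked after their values were seen. Among calcium extrusion genes, Atp2b3, a plasma membrane pump known from neurons, averaged 0.847 ± 0.00671 FPKM in SETD4 OE and 0.146 ± 0.0138 FPKM in controls (SD, n = 3 each; log2 fold change 2.49). The sodium-calcium exchanger gene Slc8a1 averaged 0.827 ± 0.0283 FPKM in SETD4 OE and 0.293 ± 0.0266 FPKM in controls, and Slc8a3 had a log2 fold change of 1.32. Among acid-sensing channels, Asic3 averaged 0.482 ± 0.0704 FPKM in SETD4 OE and 0.103 ± 0.0696 FPKM in controls (log2 fold change 2.41). Its reads were 16, 21 and 19 in SETD4 OE and 6, 1 and 5 in controls. Asic3 passed the filter of a mean of 10 reads only through SETD4 OE, so it could only be higher. Asic2 averaged 0.533 ± 0.0656 FPKM in SETD4 OE and 0.195 ± 0.0818 FPKM in controls. Nalcn, the sodium leak channel, averaged 0.759 ± 0.0508 FPKM in SETD4 OE and 0.336 ± 0.0124 FPKM in controls (log2 fold change 1.17), while its partner gene Unc80 was not called.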
